A study of Sus scrofa domesticus with 150 samples.

Results

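Skeletal muscle contractile and regeneration genes were followed through the healing of full-thickness skin wounds in pigs. The list held 39 genes by symbol, of which 37 had a row in the deposited count table of 30461 genes. They were 12 genes of fast fibers, 7 of slow fibers, 7 of the sarcomere and its supports shared by both, 2 of calcium release, 4 of muscle metabolism, 2 developmental myosins and 3 myogenic factors. The genes were selected on readout: they were chosen by their high levels in single samples of these same data. The levels below are therefore a description, and no count of called genes is read as support for the choice.

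Skeletal muscle contracts when myosin heavy chains pull on actin filaments inside sarcomeres, under the control of troponin and of calcium released from the sarcoplasmic reticulum. Fast and slow fibers use different myosins, light chains and troponins. When fibers are injured, satellite cells that express PAX7 become myoblasts under MYOD1, differentiate under MYOG and pass through a stage with embryonic (MYH3) and perinatal (MYH8) myosin.

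The animals were 6 female Yorkshire-mix pigs, each with 12 circular excisions 2 cm wide on the back, covered with Telfa Clear and Tegaderm dressings. On each of 14 days from 1 to 21, 3 animals gave 3.5 mm biopsies from the edge and from the center of 1 or 2 wounds, after which the biopsied site received a topical antibiotic (Animax Ointment). Each wound was sampled on 1 day. The 6 day 0 samples were the skin removed when the wounds were made, 1 per animal, so they differ from biopsies in how they were taken. In all, 72 edge, 72 center and 6 day 0 samples formed 29 states of day and location, with 6 samples on the 10 days with 2 wounds per animal and 3 on the 4 others. Samples are numbered within a state by animal and wound letter, so that the edge and center samples of a day that share a number came from the same wound.

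Levels are given as CPM, the counts of a gene scaled to a common library total, or as log2(1 + CPM) where averaged. Totals ran from 13133379 to 24895572 counts, so that 3 counts correspond to between 0.121 and 0.228 CPM. In a piece of tissue, fewer muscle cells and less RNA per cell cannot be told apart. On day 3, the edge and center samples numbered 4 (animal 1324, wound G) stood closer to each other than the samples of any of the other wounds, with an excess of 3.67 over sampling noise against 7.15 for the next wound and a median of 36.2, and their keratinocyte markers had mean log2 levels of 10.9 and 10.8. The counts of called genes were therefore repeated without this pair and without the day 2 center sample 2 and the day 3 edge sample 6. Over the groups of comparisons they became 67 in place of 67 for edge against center by period, 74 in place of 73 against day 0, 50 in place of 48 between periods and 60 in place of 61 by day.

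The gene models limit what can be said of some genes. MYH1 and PYGM were not found by name, and 12 of the 37 were named only by their protein match. The myosins MYH8, MYH4, MYH2 and MYH3 lie in this order on 1 contig (LUXX01062832.1, minus strand), where the row of MYH2 spans bases 2984687 to 3037661 and counts 13374 bases, against 6187 for MYH4 and 6952 for MYH8, so reads of a neighboring fast myosin cannot be told apart from MYH2 here. The row named MYL3, the slow and ventricular essential light chain, spans 147406 bases and lay between 25.4 and 128 CPM in all samples. TTN had 3 overlapping rows, of which the longest, with 93130 bases, was used.

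Most samples held almost no muscle RNA, and a few held a great deal. Over the 32 mature genes found, the mean log2(1 + CPM) lay between 1.14 and 1.33 in the 6 day 0 samples. It exceeded the highest day 0 sample in 15 of 72 center samples and 5 of 72 edge samples. The edge count depended on the measure, with 8 without 6 genes that other tissues use and 11 by the median over the genes, so the counts by wound, animal and day below hold for the mean over the 32 genes. The lowest of these 20 samples, at 1.53, was the day 9 center sample 6, and the highest wound sample below the line, at 1.31, was the day 7 edge sample 5. The highest were the day 6 center sample 5 at 10.55, the day 2 center sample 2 at 10.50 and the day 9 edge sample 5 at 9.97. In these, 10.1%, 13.2% and 7.27% of all counts fell on the 32 genes, against 0.0322% at most in the 130 samples that were not above the line.

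**Figure D1:**
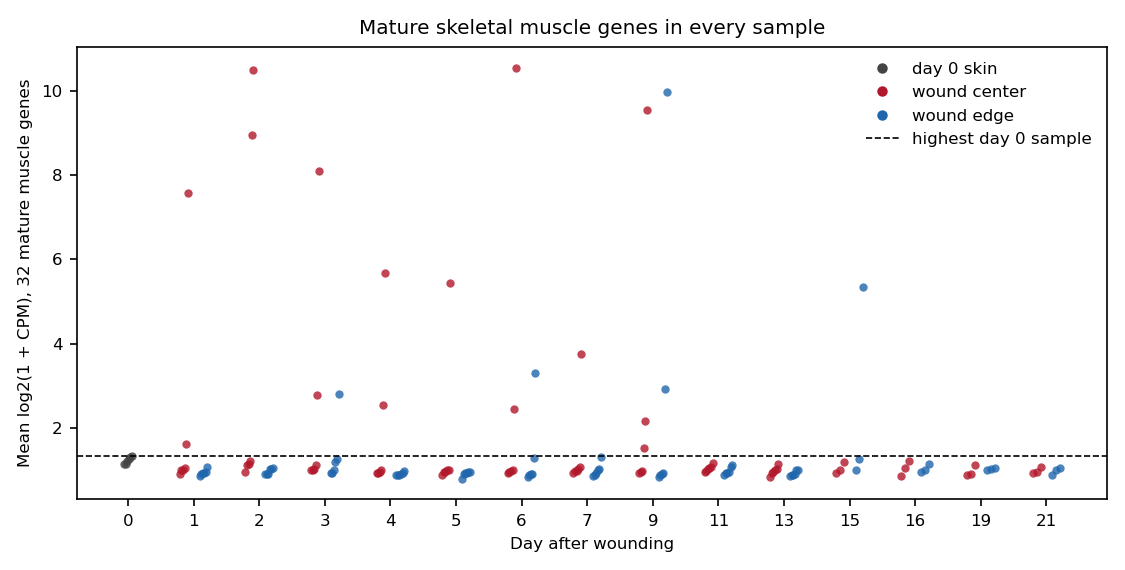
Mean log2(1 + CPM) of 32 mature skeletal muscle genes in each of the 150 samples (points), by day after wounding, for day 0 skin, wound center and wound edge. The dashed line is the highest day 0 sample, at 1.33, and 20 wound samples lie above it, the highest at 10.55 on day 6.

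All 15 center samples above the line came from days 1 to 9, where they made up 15 of 48, and none of the 24 center samples of days 11 to 21 was above it. Of the 5 edge samples, 4 came from days 1 to 9 and 1 from day 15. The samples came from 16 of the 72 wounds. In 4 of these wounds both samples were above the line, in 11 the center alone and in 1, wound D of animal 1325 on day 15, the edge alone. Animal 1328 gave 5 of the wounds, animal 1324 gave 4, animals 1325 and 1326 gave 3 each, animal 1327 gave 1 and animal 1323 gave 0 of its 12. On days 1 and 2, the samples above the line came from 4 of the 6 wounds lettered L and from 0 of the 6 wounds lettered A. On these days each animal sampled gave a wound of both letters, so letter is not tied to animal or day in this comparison. The reason for the difference was not tested. Across the other days, the letters and the set of animals change with the day by the sampling plan and cannot be told apart from it.

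ACTA1, the actin of skeletal thin filaments, shows the contrast most plainly. In day 0 skin it lay between 0 and 0.719 CPM with a median of 0.574. In the 124 wound samples below the line it ran from 0 to 3.98 CPM, with 41 of them at 0. In the samples above it, ACTA1 reached 32888 CPM in the day 2 center sample 2, 22713 in the day 6 center sample 5, 18907 in the day 9 edge sample 5, 14591 in the day 9 center sample 5 and 9730 in the day 2 center sample 6. It stood at 5614 CPM in the day 1 center sample 6, 5278 in the day 3 center sample 3, 1060 in the day 15 edge sample 3, 734 in the day 4 center sample 1 and 405 in the day 5 center sample 6. The other 10 samples above the line held between 4.31 and 105 CPM of ACTA1, which is above every sample below the line.

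Within the strongly positive samples the genes of the sarcomere rose over the same orders of magnitude. The fast myosins MYH2 and MYH4 reached 5376 CPM in the day 6 center sample 5 and 3867 CPM in the day 2 center sample 2, and MYLPF, the fast regulatory light chain, reached 3581 CPM in the latter. CKM, the muscle creatine kinase that buffers ATP, and ENO3, the muscle enolase of glycolysis, reached 16560 and 12096 CPM there. Per length of gene, averaged over the 150 samples, ACTA1 was highest at 371 CPM per kilobase of gene, followed by MYLPF at 138, CKM at 105, the fast troponin I gene TNNI2 at 89.9, DES at 70.4 and ENO3 at 65.3. The calcium release genes RYR1 and TRDN averaged 8.46 and 4.83 on the same scale, and the most abundant slow genes, TNNC1 and MYBPC1, 4.91 and 4.13. These averages rest on few samples: among center samples of days 1 to 4, the highest sample alone held a median of 56.7% of a gene's summed CPM.

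**Figure D2:**
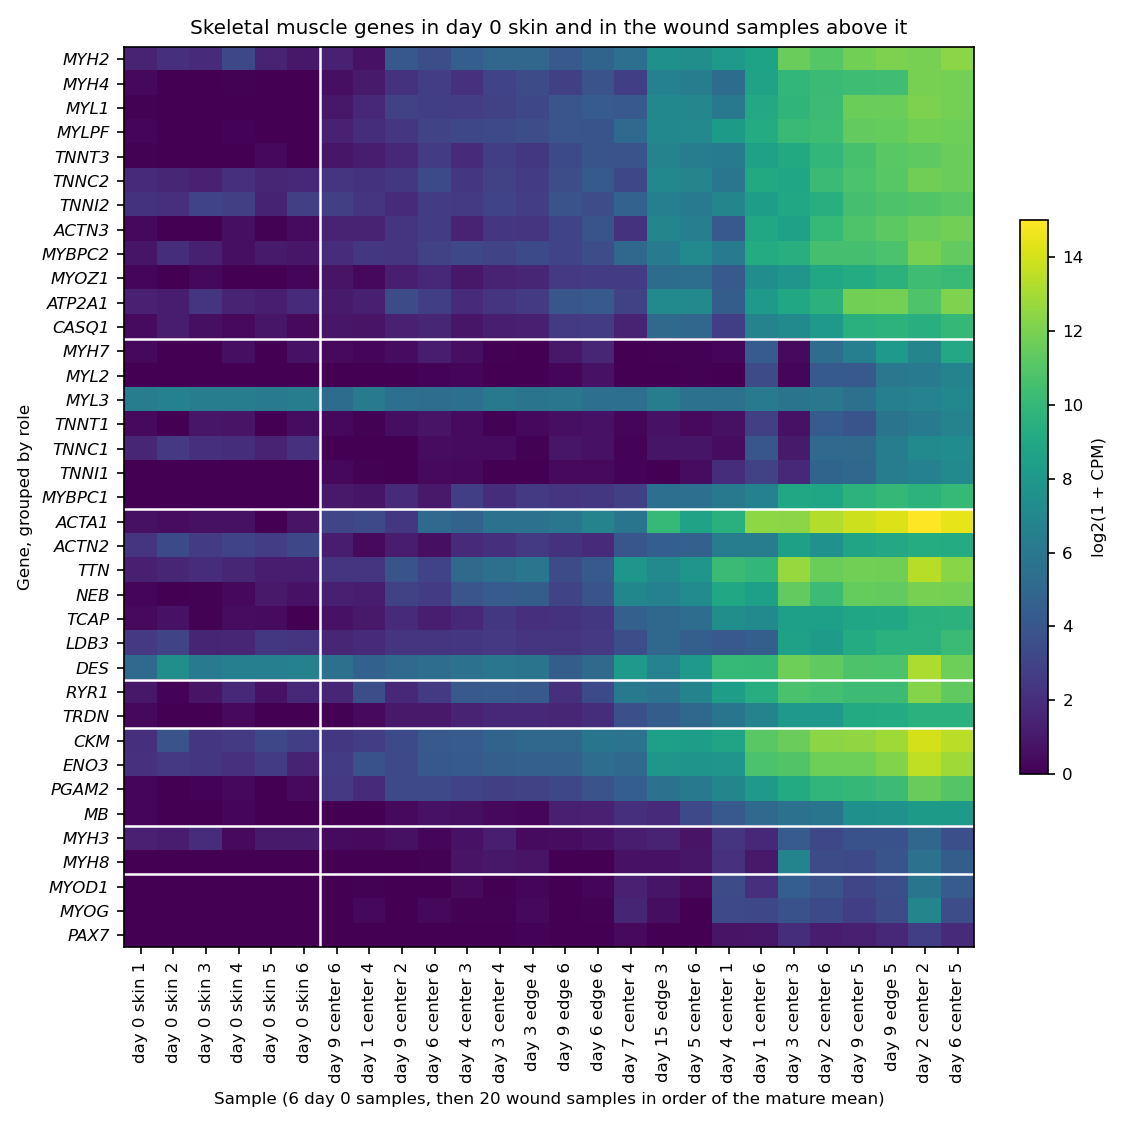
log2(1 + CPM) (color) of the 37 genes (rows, grouped by role and parted by white lines) in the 6 day 0 samples (left of the vertical line) and the 20 wound samples above the highest of them, in order of their mature mean. Fast and shared sarcomere genes rise from left to right, slow fiber and myogenic genes are high in part of the samples only, and MYL3 and DES are present throughout.

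Not every gene of the list followed this pattern. Across the 150 samples, the mean Pearson r of log2(1 + CPM) with the other mature genes was highest for MYOZ1 (0.918), a Z-disc protein of fast fibers, TRDN (0.917) and TNNT3 (0.915), and lowest for MYL3 (0.274), TNNT1 (0.629) and MYH3 (0.774). These correlations are set by the few samples with much muscle RNA and share library totals, so they describe the list and carry no test. DES, which encodes the intermediate filament desmin of all muscle types, lay between 33.5 and 171 CPM in day 0 skin and between 11.1 and 103 CPM in the wound samples below the line. Smooth muscle of vessels and hair muscles also uses DES, and the smooth muscle marker list (8 of 8 genes found) had a median mean log2 level of 6.22 in the samples above the line and 6.02 in those below it. In day 0 skin the smooth muscle list had a median of 6.89. Cardiac markers (5 of 7 found) were low and alike, with medians of 0.905 above the line, 0.881 in the wound samples below it and 0.914 on day 0.

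Slow fiber genes varied between samples even relative to fast fiber genes. MYH7, the slow myosin, reached 534 CPM in the day 6 center sample 5, 266 in the day 9 edge sample 5, 114 in the day 2 center sample 2, 89.3 in the day 9 center sample 5, 40.9 in the day 2 center sample 6 and 19.4 in the day 1 center sample 6. In the day 3 center sample 3, whose MYH2 stood at 3012 CPM, MYH7 stood at 0.295 CPM, which is within the day 0 range of 0 to 0.659. As a share of the counts of MYH7, MYH2 and MYH4, MYH7 took 5.56% (exact 95% interval 5.44 to 5.67) in the day 6 center sample 5 and 4.60% (4.48 to 4.73) in the day 9 edge sample 5. It took 0.00742% (0.00272 to 0.0162) in the day 3 center sample 3, 0.0564% (0.0116 to 0.165) in the day 4 center sample 1, 0.0209% (0.000529 to 0.116) in the day 5 center sample 6 and 0.0255% (0.000646 to 0.142) in the day 15 edge sample 3. In the day 7 center sample 4 it took 0 of 951 counts, which allows a share of up to 0.387%. Intervals cover counting error only.

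None of the 12 samples with at least 1000 ACTA1 counts lay between 0.0564% and 1.22% in the share of MYH7, and the other slow genes showed this gap in part. MYL2, the slow and ventricular regulatory light chain, made 3.22% of the counts of MYL2 and MYLPF in the day 6 center sample 5 and 2.15% in the day 9 edge sample 5, but 0.0176% in the day 3 center sample 3 and 0 of 4865 counts in the day 4 center sample 1. The slow troponin I gene TNNI1 made 6.04% of the counts of TNNI1 and TNNI2 in the day 6 center sample 5 and 0.429% in the day 3 center sample 3, yet 2.56% (1.90 to 3.37) in the day 4 center sample 1. The slow troponin C gene TNNC1, which cardiac muscle shares, made 4.70% of its pair with TNNC2 in the day 6 center sample 5 against 0.256% in the day 3 center sample 3. The edge and center samples of 1 wound also differed: in wound E of animal 1328 on day 9, MYH7 made 4.60% at the edge and 1.78% (1.70 to 1.87) in the center. MYBPC1, a myosin binding protein listed with the slow genes, did not follow MYH7, with 484 CPM in the day 3 center sample 3 and 444 CPM in the day 2 center sample 6.

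Among fast myosins, the balance of MYH4 to MYH2 also varied. MYH4, the fastest type, made 49.7% (49.5 to 50.0) of the counts of both in the day 2 center sample 2 and 49.3% in the day 1 center sample 6, 24.3% in the day 3 center sample 3, 12.2% (11.4 to 13.1) in the day 4 center sample 1 and 11.9% (9.89 to 14.1) in the day 7 center sample 4. In the samples of animal 1328 it ran from 24.7% at the edge on day 9 to 40.8% in the center on day 6. These shares use counts without a correction for the length of the 2 rows, so they compare samples and not the genes themselves.

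**Figure D3:**
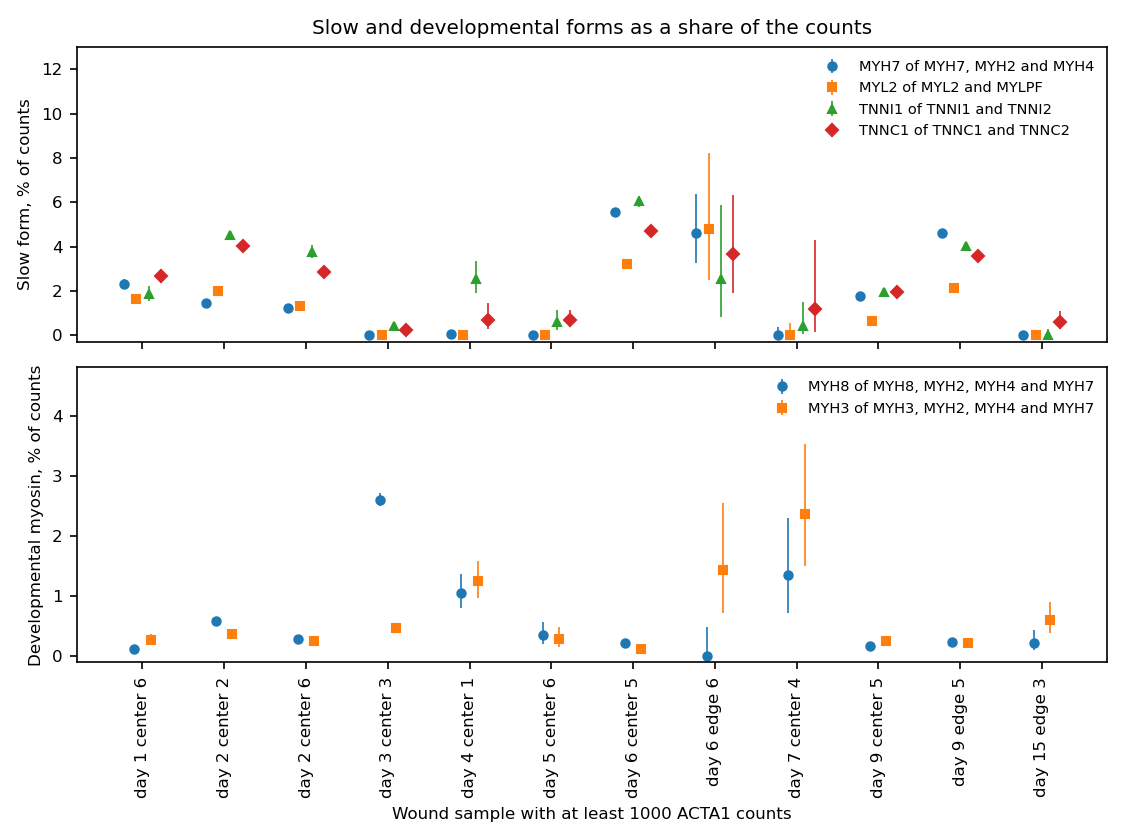
Slow isoforms as a percent of the counts of each slow and fast pair or set (upper panel) and MYH8 or MYH3 as a percent of its counts and those of MYH2, MYH4 and MYH7 (lower panel) in the 12 wound samples with at least 1000 ACTA1 counts, with exact 95% intervals. The share of MYH7 is 5.56% in the day 6 center sample 5 and 0.00742% in the day 3 center sample 3, where that of MYH8 is 2.61%.

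The developmental myosins were low throughout and behaved differently from each other. MYH8, the perinatal myosin, had 0 counts in all 6 day 0 samples and at most 0.296 CPM in the wound samples below the line. It reached 106 CPM in the day 3 center sample 3, 47.1 in the day 2 center sample 2, 20.8 in the day 6 center sample 5, 14.1 in the day 9 edge sample 5, 9.64 in the day 2 center sample 6 and 8.73 in the day 9 center sample 5. The highest of these was at least 3885-fold above the limit that 3 counts over the 6 day 0 samples set. As a share of MYH8, MYH2, MYH4 and MYH7 counts, it made 2.61% (2.50 to 2.72) in the day 3 center sample 3, 1.06% in the day 4 center sample 1 and 1.35% (0.720 to 2.30) in the day 7 center sample 4, against 0.594% in the day 2 center sample 2 and between 0.174% and 0.243% in the 3 strongest samples of animal 1328 on days 6 and 9. The day 3 center sample 3, with the most MYH8, was one of those with the least MYH7, at 20.2 and 0.0560 per 1000 ACTA1 counts. The day 4 center sample 3, with less ACTA1, held both, at 27.4 and 18.8.

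MYH3, the embryonic myosin, was already present at 0.280 to 2.68 CPM in day 0 skin and at 0 to 2.34 CPM in the wound samples below the line. It stood at 29.8 CPM in the day 2 center sample 2, 18.6 in the day 3 center sample 3, 12.6 and 12.5 in the edge and center samples 5 of day 9, 11.7 in the day 6 center sample 5, 8.59 in the day 2 center sample 6 and 4.01 in the day 4 center sample 1. These 7 samples lay above every day 0 sample, while the 1.21 CPM of the day 7 center sample 4 and the 2.30 CPM of the day 1 center sample 6 were within the day 0 range.

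The 3 myogenic factors were at or near 0 wherever mature muscle genes were low. MYOD1, MYOG and PAX7 had 0 counts in the 6 day 0 samples, and at most 0.106, 0.292 and 0.0591 CPM in the 124 wound samples below the line. MYOG, which drives the differentiation of myoblasts, reached 114 CPM in the day 2 center sample 2, 12.6 in the day 3 center sample 3, 10.7 in the day 6 center sample 5, 10.03 in the day 9 edge sample 5, 9.33 in the day 2 center sample 6, 8.80 in the day 4 center sample 1, 8.43 in the day 1 center sample 6, 5.84 in the day 9 center sample 5 and 1.94 in the day 7 center sample 4. It was at most 0.493 CPM in the other 11 samples above the line. MYOD1, the factor of activated myoblasts, reached 55.2 CPM in the day 2 center sample 2 and 21.7 in the day 3 center sample 3, and PAX7, the factor of satellite cells, 5.94 and 2.86. The highest samples of MYOG, MYOD1 and PAX7 were at least 4160-fold, 2016-fold and 217-fold above the limit set by 3 counts over the 6 day 0 samples.

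Relative to ACTA1, the order of the samples changed. This order depends on ACTA1 as the reference. TTN per 1000 ACTA1 counts was also highest in the day 7 center sample 4, at 4150, against 330 in the day 2 center sample 2. The order relative to TTN or another mature gene was not tested. In the 12 samples with at least 1000 ACTA1 counts, MYOG was highest per 1000 ACTA1 counts in the day 7 center sample 4, at 34.5 (37 counts), and the day 4 center sample 1, at 12.0 (147 counts). It stood at 3.47 in the day 2 center sample 2, 2.39 in the day 3 center sample 3 and 0.959 in the day 2 center sample 6, and between 0.400 and 0.547 in the 4 samples of days 6 and 9. In the day 15 edge sample 3 it stood at 0.465 (7 counts), and the day 5 center sample 6 had 0 MYOG counts beside 7804 of ACTA1. MYOD1 followed a like order, with 28.9 in the day 7 center sample 4, 13.6 in the day 4 center sample 1, 4.10 in the day 3 center sample 3 and between 0.538 and 1.68 in the other 9. PAX7 counts were too few to rank most samples, with 117 in the day 2 center sample 2, 58 in the day 3 center sample 3 and at most 40 elsewhere. The samples of days 6 and 9 all came from animal 1328, so that day and animal cannot be told apart among them.

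**Figure D4:**
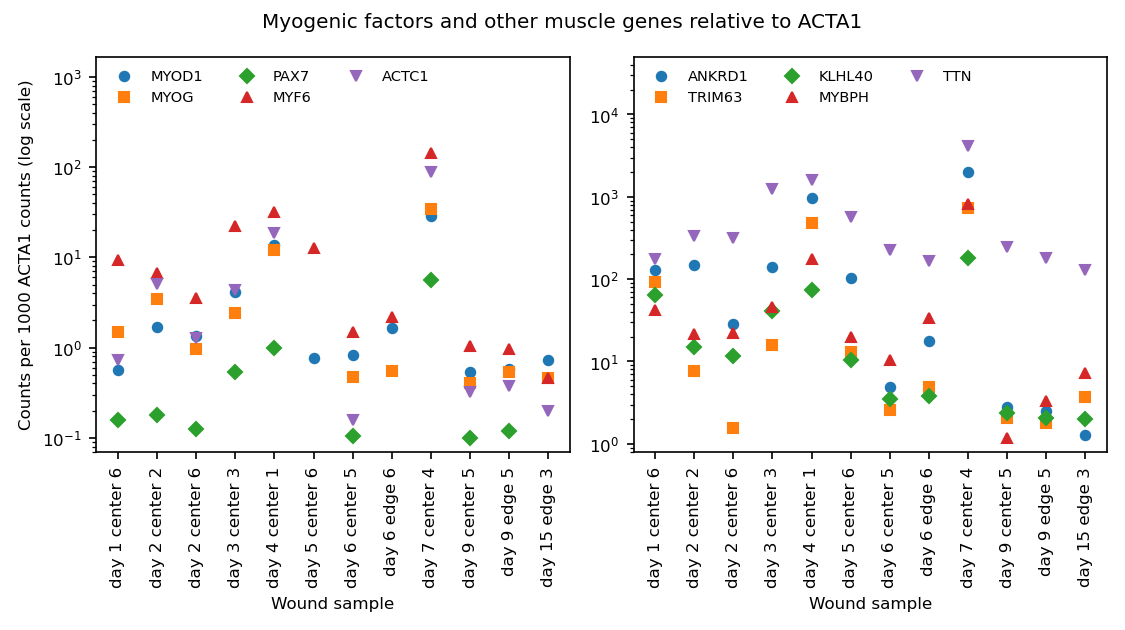
Counts per 1000 ACTA1 counts (log scale) in the 12 wound samples with at least 1000 ACTA1 counts, in order of day, for myogenic genes and ACTC1 (left) and for ANKRD1, TRIM63, KLHL40, MYBPH and TTN (right); genes with 0 counts are not drawn. MYOG stands at 34.5 and ANKRD1 at 2023 in the day 7 center sample 4, against 0.400 and 2.79 in the day 9 center sample 5.

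Some muscle genes outside the list also varied relative to ACTA1. ANKRD1, a stress-responsive protein of cardiac and skeletal sarcomeres, TRIM63, a ubiquitin ligase of muscle wasting, and KLHL40, a support of the thin filament, were named after their values were seen. ANKRD1 stood at 4877 CPM in the day 2 center sample 2 and at 111 CPM in the day 6 center sample 5. Per 1000 ACTA1 counts it made 2023 in the day 7 center sample 4, 971 in the day 4 center sample 1, 148 in the day 2 center sample 2, 142 in the day 3 center sample 3, 129 in the day 1 center sample 6 and 103 in the day 5 center sample 6. It made 17.5 in the day 6 edge sample 6, 4.90 in the day 6 center sample 5, 2.79 and 2.50 in the center and edge samples 5 of day 9 and 1.26 in the day 15 edge sample 3. Among these 12 samples, those of animal 1328 gave 28.7 on day 2 and between 2.50 and 17.5 on days 6 and 9. With fewer ACTA1 counts, at 589, the day 6 center sample 6 of the same animal gave 93.4, above its day 2 value. TRIM63 reached 726 per 1000 ACTA1 counts in the day 7 center sample 4, 482 in the day 4 center sample 1 and 91.5 in the day 1 center sample 6, and lay between 1.54 and 16.0 in the other 9. MYF6, a myogenic factor of mature fibers, reached 144 in the day 7 center sample 4 and 31.6 in the day 4 center sample 1, against 0.972 in the day 9 edge sample 5. ACTC1, the actin of the heart and of developing muscle, reached 88.5 and 18.5 in the first pair and 0.374 in the last.

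The ratios among mature genes moved as well. TTN, the giant spring of the sarcomere, stood at 4150 per 1000 ACTA1 counts in the day 7 center sample 4, 1602 in the day 4 center sample 1 and 1250 in the day 3 center sample 3, and between 129 and 567 in the other 9. NEB, the ruler of the thin filament, stood at 2067, 671 and 506 in the same 3 samples and between 63.7 and 363 in the others. ATP2A1, the calcium pump of fast fibers, showed another order, with 330 in the day 5 center sample 6, 243 in the day 9 center sample 5 and 27.9 in the day 4 center sample 1. In the day 7 center sample 4, with 1073 ACTA1 counts, TTN lay at 234 CPM against at most 6.17 CPM in the wound samples below the line.

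The edge and the center were then compared with edgeR's quasi-likelihood test in 1 fit over all 150 samples, averaging the days of a period and adjusting p over all 17916 genes tested, of which all 37 list genes were part. MYH4, MYL2, TNNI1, TRDN, MB, MYH8, MYOD1, MYOG and PAX7 were at most at 0.378 CPM in the samples below the line. There they were too low for the filter, so they entered the fit only through the samples above the line. The list was chosen on such samples, so the p-values of these genes are a description. In days 1 to 4, 36 of the 37 were lower at the edge and 0 higher, with a median log2 difference of -6.40 against -0.03 over all genes. Of all genes tested, 59.3% were called in that comparison. ACTA1 had a median of 0.0934 CPM in the 24 edge samples and 0.333 in the 24 center samples of these days, with maxima of 49.6 and 32888 CPM, so the groups overlapped, and the highest center sample alone held 60.5% of the summed ACTA1 CPM of the 24. The fitted edge to center difference of ACTA1 was -11.07 ± 1.57 (log2 ± SE, adjusted p = 7.17e-10), that of MYH4 -10.77 ± 1.92 (adjusted p = 1.15e-06) and that of MYOG -7.03 ± 1.15 (adjusted p = 1.43e-07). The 10 largest were those of ACTA1, MYH4, TNNT3, MYL1, MYLPF, TRDN, MYH2, MB, NEB and MYOZ1. MYH7 fell by 3.44 ± 0.83 and MYH3 by 1.78 ± 0.43, and MYL3 was the gene not called.

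In days 5 to 9, 29 of the 37 genes were lower at the edge and 1, MYL3, was higher, with a median of -3.07 and 54.4% of all genes called. With each wound as a block, which pairs its edge and center samples, 9 genes were called in place of 30 in days 5 to 9 and 30 in place of 36 in days 1 to 4. Without the samples numbered 5 the count of days 5 to 9 was 13, and without those numbered 4 or 6 it was 18. These samples include the day 6 and day 9 samples of animal 1328 and the day 7 center sample 4. In days 11 to 21 only MYL3 was called, at 0.28 ± 0.09 higher (adjusted p = 0.00347), with 48.8% of all genes called. The count was 2 with the block, 8 with DESeq2 and 0 without the samples numbered 2.

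By role, all 12 fast fiber genes, 7 shared sarcomere genes, 2 calcium release genes and 4 metabolic genes were lower at the edge in both periods up to day 9 without the block. With the wound as a block, the difference of days 5 to 9 turned from -4.14 to 0.11 for CKM, from -3.05 to 1.07 for ATP2A1 and from -2.67 to 0.033 for ACTN2. The slow fiber genes were lower in 6 of 7 in days 1 to 4, and in days 5 to 9 in 2 of 7, MYBPC1 and TNNT1, with MYL3 higher. Both developmental myosins and all 3 myogenic factors were lower in days 1 to 4, and MYH8 and MYOD1 alone among these 5 in days 5 to 9. MYH2 fell by 5.71 ± 1.33 at the edge in days 5 to 9 (adjusted p = 1.23e-04) and ACTA1 by 5.30 ± 1.25 (adjusted p = 1.51e-04), and neither was called with the block. MYH8, MYOD1 and TNNT1 also lost their calls of days 5 to 9 with it. Of 71 other muscle genes listed, 65 were tested. At the edge, 53 were lower and 4 higher in days 1 to 4, with a median of -2.92 and 59.3% of all genes called. In days 5 to 9, 37 were lower and 5 higher, with a median of -1.27 and 54.4% of all genes called. In days 11 to 21, 4 were lower and 8 higher, with 48.8% of all genes called. MYF6, MYOT, SMPX, MYOZ3 and PPP1R3A lay at most at 0.400 CPM in the wound samples below the line. Where tested, such genes entered the fit only through the samples above the line, so their calls are a description. The most abundant of the other muscle genes per length were ATP2A2 and FHL1. ATP2A2, the calcium pump of slow and cardiac muscle that other tissues also use, stood at 28.1 CPM per kilobase of gene over the 150 samples. FHL1, a sarcomere protein with a wider use, stood at 25.3.

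**Figure D5:**
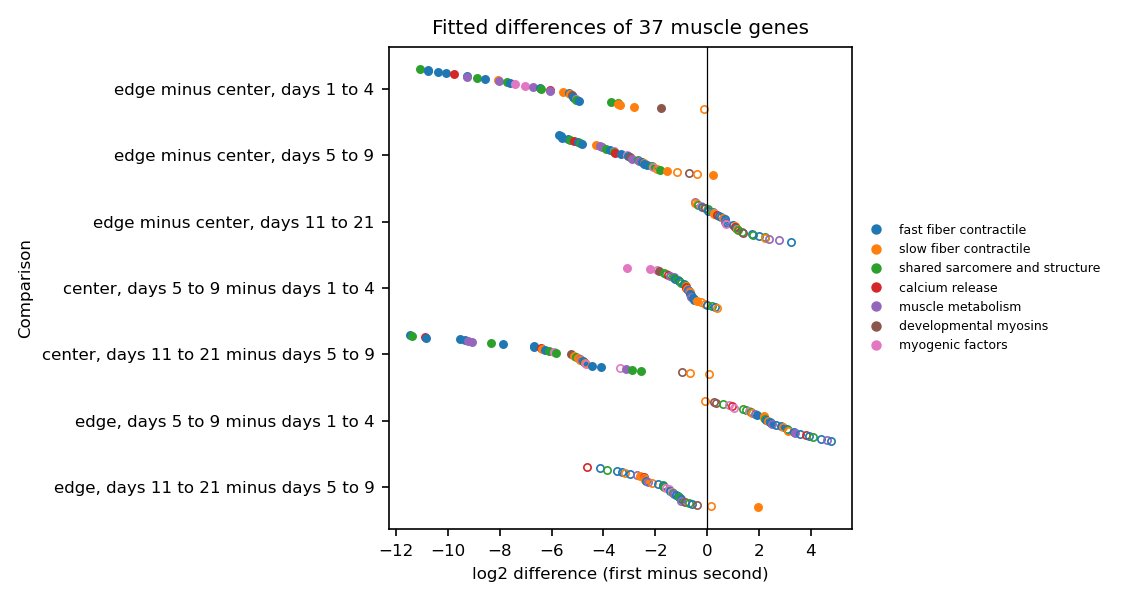
Fitted log2 differences of the 37 genes (points, colored by role) in 7 comparisons of location or period, filled where the adjusted p of edgeR's test was below 0.05. Nearly all points of the edge to center comparison lie below 0 in days 1 to 4, with a median of -6.40, and on both sides of 0 in days 11 to 21.

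Center levels differed between periods. From days 1 to 4 to days 5 to 9, 5 of the 37 genes fell in the center and 0 rose, at 45.5% of all genes called: MYOG by 3.11 ± 0.89 on the log2 scale (adjusted p = 0.00278), MYOD1 by 2.21 ± 0.94 (adjusted p = 0.0469), MYH8 by 1.86 ± 0.80 (adjusted p = 0.0490), DES by 1.27 ± 0.51 (adjusted p = 0.0313) and MYL3 by 0.41 ± 0.08 (adjusted p = 1.32e-05). MYOG, MYOD1 and MYH8 entered the fit only through the samples above the line, so their p-values are a description here too. The count of 5 depended on which samples entered the fit. It was 20 with the animal as a block, 37 without the samples numbered 5, 11 without those numbered 4, 2 without those numbered 3 or without the 4 samples that stood apart, and 1 without those numbered 1, 2 or 6, and MYOD1 turned to 0.11 without those numbered 3. The median over the list was -0.80. Among the other muscle genes fixed as lists, 25 of 65 fell and 3 rose. Only the share called in both directions together was near the 45.5% of all genes. Of all genes, 25.9% fell and 19.6% rose, so falls were more frequent and rises less frequent among the other muscle genes. This difference was not tested. The other muscle genes that fell included ACTC1 by 3.29 ± 0.72, MYF6 by 2.62 ± 0.88 and MYBPH, a myosin binding protein of developing muscle, by 1.93 ± 0.46. MYF6 also entered the fit only through the samples above the line, so its fall is a description. The values of ANKRD1, TRIM63 and KLHL40, seen before they were named, fell by 4.00, 2.99 and 3.41.

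From days 5 to 9 to days 11 to 21, 30 of the 37 genes fell in the center, at 49.6% of all genes called, with a median of -5.24. MYH4, ACTA1, TRDN, MYH2, MYLPF, TNNT3, CKM, MB, NEB and MYOZ1 fell most. ACTA1 fell by 11.38 ± 1.86 (adjusted p = 1.30e-07), from a maximum of 22713 CPM to a maximum of 2.63 CPM. Its medians were 0.716 and 0 CPM. MYOD1, which entered the fit only through the samples above the line, fell by 5.90 ± 1.76 (adjusted p = 0.00366), given as a description. MYOG, MYH7 and MYL2 did not pass the test. Without the samples numbered 5 the count was 20.

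At the edge, 9 genes rose from days 1 to 4 to days 5 to 9, with 22.7% of all genes called: TTN, ATP2A1, MYBPC2, TNNC2, ACTN3, TNNI2, PGAM2, CASQ1 and TNNT1. The count was 2 with the animal as a block, 1 without the samples numbered 5 and 24 with DESeq2. In these days the day 9 edge sample 5 alone held 99.1% of the summed ACTA1 CPM of the 24 edge samples. From days 5 to 9 to days 11 to 21, TNNT1, the slow troponin T gene, rose at the edge by 1.96 ± 0.61 (adjusted p = 0.00691), and RYR1, MYH7 and TNNC1 fell, with 37.3% of all genes called. TNNT1 lay between 0.190 and 10.4 CPM in the 24 late edge samples, with a median of 1.60 against 0.180 in days 5 to 9, and of these late samples 1 was above the line of muscle content.

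Against day 0 skin, the center was higher in 30 genes and lower in 1 in days 1 to 4, with 68.4% of all genes called, and higher in 26 and lower in 1 in days 5 to 9, with 70.8% called. The gene that was lower was MYL3 both times. The medians of the fitted log2 differences over the 37 genes were 7.25 and 5.79. The 7 genes with 0 counts in all day 0 samples have no measured fold. With their pooled center CPM over the limit of 3 counts in the 6 day 0 samples used instead, the medians were 7.33 and 5.49. Pooled values are another measure than the fitted differences and rest on the few samples with much muscle RNA. The center counts of days 5 to 9 fell from 27 to 14 without the samples numbered 5. Of the myogenic factors, MYOG, MYOD1 and PAX7 passed the test in days 1 to 4 and none in days 5 to 9. All of them entered the fit only through the samples above the line, so this is a description. In the same comparison, the edge had 0 genes higher and 3 lower in days 1 to 4 (50.5% of all genes called) and 1 higher and 1 lower in days 5 to 9 (55.1% called). All 6 comparisons with day 0 share its 6 samples.

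The late wound differed from skin at low levels. In the center of days 11 to 21, with 61.7% of all genes called, 5 genes were lower than on day 0 and PGAM2 was higher. MYH2 lay between 0.958 and 8.69 CPM, with a median of 2.13, on day 0 and between 0 and 0.392 in the 24 late center samples, 16 of which were at 0. TNNC1 lay between 1.73 and 4.68 CPM on day 0 and between 0 and 0.428 later, CKM between 3.03 and 13.4 and later between 0 and 1.34, and the Z-disc gene ACTN2 between 3.97 and 9.31 and later between 0.0653 and 1.24. The groups did not overlap in any of these 4 genes. The share of all genes without overlap is not given here, so this is a description of the 4. The fitted differences were -5.77 ± 2.04 for MYH2 (adjusted p = 0.0103), -6.40 ± 1.17 for TNNC1 (adjusted p = 1.02e-06), -4.44 for CKM (adjusted p = 0.00711) and -3.66 ± 1.10 for ACTN2 (adjusted p = 0.00256). In day 0 skin the hair follicle marker list (7 of 8 found) had a median log2 level of 8.37, against 0.232 in the wound samples below the line, and its part in these differences was not tested.

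PGAM2, the muscle phosphoglycerate mutase, went the other way. It lay between 0 and 0.2995 CPM on day 0 and between 2.98 and 12.1 CPM, with a median of 5.47, in the late center. At the late edge it lay between 1.23 and 49.6 CPM. The highest late edge value was that of the day 15 edge sample 3, which was above the line of muscle content. Wound samples below the line held at most 12.1 CPM of PGAM2. The fitted difference was 5.43 ± 1.74 in the center (adjusted p = 0.00455) and 4.96 ± 1.73 at the edge (adjusted p = 0.0152). No late center sample was above the line of muscle content. MYL1, the fast essential light chain, was likewise at 0 in 5 of 6 day 0 samples and between 0.127 and 1.46 CPM in all 24 late center samples, but did not pass the test. At the late edge, TNNC1, DES and MYL3 were lower than on day 0, with 40.8% of all genes called. The late edge count was 4 with no block, 7 with the animal as a block and 11 with DESeq2.

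Day by day, in fits on the samples of each day alone, only 12 to 19 of the 37 genes passed the filter on low counts. The filter asked for enough counts in as many samples as each location had on the day. No day had that many samples above the line of muscle content, so no gene passed through those samples alone. Days 11, 13, 16, 19 and 21 had 0 such samples. The calls among the list were 10, all lower at the edge, on day 1 (46.6% of all genes called), 16 lower on day 2 (35.7%), 9 lower on day 4 (27.8%), 6 lower on day 5 (37.1%) and 7 lower on day 6 (14.2%). On day 7, 3 were lower and MYL3 was higher (37.4%), and on day 9 only MYL3 was called, as higher (31.6%). On day 3, edgeR's test called 0 of the 19 genes tested and 0 genes in all (0.0%), with 18 list genes at an unadjusted p below 0.05. On day 11, 2 were higher and 3 lower (43.4%), on day 13 TNNI2 was lower (28.4%), on day 15 MYL3 was higher (17.4%) and on day 16 DES was lower (10.1%). On day 19, 0 of 14 were called (0.0%) and 0 had an unadjusted p below 0.05, and on day 21, 0 of 17 were called (0.0684%) with 1 at an unadjusted p below 0.05. Over the 14 days 61 calls became 20 with the wound as a block, 39 with the wounds of an animal summed and 36 with DESeq2.

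The other cell types were compared between the 20 samples above the line and the 124 below it as values, without a test. The adipocyte list (7 of 9 found) had a median of 6.87, with a range of 5.41 to 8.63, in the samples above and 5.93, with a range of 0.981 to 10.1, in those below. The keratinocyte list (7 of 8 found) stood at 4.10 and 10.6, and 15 of the 20 samples were centers. The medians above and below the line were 11.1 and 11.2 for fibroblasts, 6.89 and 6.68 for endothelium, 6.88 and 6.41 for macrophages, 5.58 and 5.55 for neutrophils and monocytes (8 of 8 found each) and 1.93 and 1.95 for Schwann cells (7 of 7). Within day and location, the endothelium list lay below every sample not above the line in 11 of the 20 samples and above every one in 1. The same counts were 6 below and 8 above for adipocytes. The part of these cells in the muscle levels was not tested.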

How the data were processed

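RNA from 72 edge and 72 center biopsies and 6 pieces of excised day 0 skin was poly-A enriched and sequenced by a commercial provider, which also cleaned the reads. The aligner, the counter, their versions and the genome build are not given in the sources used here. The authors deposited raw counts per gene with each gene's length in bases, and a table of FPKM values per gene, which was not used for tests. The members and gene lists were chosen with earlier results of these data known. Genes were matched by symbol, or by the protein match in the deposited description where no symbol was given. Levels are CPM, averaged as log2(1 + CPM) with a pseudocount of 1. Tests used edgeR 4.0.16 (quasi-likelihood, TMM) on counts, on genes that passed filterByExpr (count at least 10, total at least 15), with 1 coefficient per state and Benjamini-Hochberg adjustment over all genes tested. Genes with an adjusted p below 0.05 were called. Animals and wounds are not separate in these p-values, since wounds of an animal share it, and the replicate block and the sums over an animal's wounds were run for this reason. The labels give the animal and wound of each sample, and the deviations of the edge and center of a wound correlated with a mean r of 0.270 over 14081 genes, above 0 in 64 of 72 wounds. Genes named are ACTA1, MYH2, MYH7, MYH3, MYH8, MYOD1, MYOG and PAX7, up to 10 called genes each way per comparison, the 2 most abundant per length in each list, and the 3 most and 3 least like the other mature genes. ANKRD1, TRIM63, KLHL40 and the examples of ratios to ACTA1 were chosen after their values were seen. Alternatives were DESeq2 1.42.0, median-of-ratios size factors, no TMM, no filter, leaving out each replicate and, chosen after seeing the data, leaving out 4 samples that stood apart. In tests on simulated data, the fit of days 1 to 4 over 17522 genes found 93% of genes changed 2-fold and 98% of those changed 4-fold, with 4.98% false calls, and the day 1 fit over 14276 genes found 42% and 86%, with 6.57% false. The simulated samples were independent, with 1 mean per gene and changes only in genes above 1 CPM. They held no animal or wound effect and no muscle in single wounds, so these rates do not carry over to the list genes. Shares carry exact Clopper-Pearson 95% intervals, which cover counting error only.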

Additional observations from a re-analysis of the deposited data

Results flagged for a closer look

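In groups of 6 samples, a sample was picked out where its gap to the nearest other, divided by the range of the group, exceeded Dixon's 95% critical value. Of 42 groups tested, for the mature mean and for MYH3 in the same samples, 16 had such a sample, and each was the highest of its group. The rule can miss a high sample that has a high neighbor. The day 2 center sample 2, with a mature mean of 10.50, was not picked out beside sample 6 of that group at 8.96. For the mean of the mature genes the ratios were 0.892 for the day 1 center sample 6, 0.750 for the day 3 center sample 3, 0.827 for the day 3 edge sample 4, 0.662 for the day 4 center sample 1 and 0.970 for the day 5 center sample 6. On later days they were 0.843 for the day 6 center sample 5, 0.823 for the day 6 edge sample 6, 0.954 for the day 7 center sample 4, 0.637 for the day 7 edge sample 5, 0.856 for the day 9 center sample 5 and 0.772 for the day 9 edge sample 5. The day 7 edge sample 5 had a mean of 1.31 and lay within the range of day 0 skin. For MYH3, the embryonic myosin, the ratios were 0.871 for the day 3 center sample 3, 0.706 for the day 4 center sample 1, 0.832 for the day 6 center sample 5, 0.864 for the day 9 center sample 5 and 0.849 for the day 9 edge sample 5. The genes were selected on such samples, so the number of them is a description.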

How the results depend on the processing

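The counts of called genes depended on the test and on the samples included. Edge against center by period gave 67 calls over the 3 periods and 41 with the replicate block, which pairs the samples of a wound, and without each replicate number in turn 48 to 64. Against day 0 there were 73 calls, 115 with DESeq2 and 56 to 73 without a replicate. Between periods there were 48, 77 with DESeq2 and 27 to 60 without a replicate. By day there were 61, against 36 with DESeq2, 119 with no filter, 39 with the wounds of an animal summed, 20 with the replicate block and 41 to 49 without a replicate. The 5 edge samples above day 0 became 8 without 6 genes that other tissues use and 11 by the median over the genes. Of 188 called values by period, 84 kept their call under every alternative, 98 lost it under at least 1 and 6 changed sign. With the replicate block, edge minus center in days 5 to 9 became 0.11 for CKM, 1.07 for ATP2A1 and 0.033 for ACTN2. Without 1 replicate at a time, LDB3 ran from -0.21 to 2.91 for center minus day 0 in days 5 to 9 and from -3.10 to 0.026 for the center of days 11 to 21 minus days 5 to 9, and MYOD1 from -6.49 to 0.11 for the center of days 5 to 9 minus days 1 to 4. The cause was not tested. At 3 counts, levels below 0.121 to 0.228 CPM could not be measured.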
